A study of Mus musculus with 7 samples.

Results

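The genes described here are the cyclins, the cyclin-dependent kinases (CDKs), the E2F transcription factors and the enzymes that act directly on them, measured in sorted cells of the embryonic mouse cortex after knockdown of Trnp1. The list names 40 genes, and a gene was measured where the array had a probe set annotated with its symbol alone. That held for 39 of the 40, out of 19938 genes measured in all, and the mitotic cyclin Ccnb1 was not analysed here. Where a gene had several such probe sets, the one with the highest mean over all 7 arrays stood for it. The members were chosen by name and not by their values, but with earlier results of these data known.

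Cortices of C57BL/6 embryos were electroporated on embryonic day 13 with constructs marked by green fluorescent protein, and labelled cells were isolated by flow sorting 24 h later. The 3 Trnp1 knockdown samples and the 4 control samples, whose genotype is given as WT, were each hybridised to 1 array at the age of embryonic day 14. All of them went through electroporation and sorting, so the fluorescent gate holds every cell type that took up DNA, and the labels state neither the knockdown construct nor the number of embryos in a sample. Replicates are called biological, and where they do not come from separate litters the p-values measure only the spread between these samples.

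Values are log2 signals of Affymetrix probe sets, and a difference of 1 is a doubling. Medians of single arrays over 35556 probe sets ranged from 4.398 to 4.611, and 3 and 4 arrays a group limit the precision of every value. Trnp1 itself, a nuclear protein of cortical progenitors, was at 4.80, 4.85 and 4.55 in knockdown arrays, against 5.07, 5.0, 5.24 and 5.22 in controls. The groups did not overlap, in the direction of the labels, with a difference of -0.40 (95% interval -0.69 to -0.11). With all 35 ways to divide the arrays, an exact permutation test (two-sided) gave p = 0.0286, its smallest possible value, while the adjusted p from limma was 0.825. In the bulk RNA of sorted cells, fewer cells in a phase of the cycle and less of a transcript per cell cannot be told apart.

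A cyclin is the regulatory subunit that switches on its kinase, and successive cyclin and CDK pairs drive a dividing cell through growth, DNA replication and mitosis. D cyclins with Cdk4 or Cdk6 start to inactivate the retinoblastoma protein, which frees E2F factors to switch on the genes of DNA replication, among them E cyclins. A cyclins then act with Cdk2 and Cdk1 in S and G2 phase, and B cyclins with Cdk1 start mitosis. In the embryonic cortex radial glia and intermediate progenitors cycle through these phases until they leave the cycle as neurons. Several relatives do not drive division, since some CDKs control RNA polymerase II and Cdk5 works mainly in postmitotic neurons.

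No member passed the test over all genes. By limma with Benjamini-Hochberg adjustment, 0 of the 39 members had an adjusted p under 0.05, as did 0% of all genes, and the smallest adjusted p of a member was 0.825. At an unadjusted p under 0.05, 1 member was lower in knockdown samples, the mitotic kinase Cdk1, where 3.61% of all genes were, and 0 members were higher, where 2.2% were (5.81% in either direction). That count was 0 without knockdown replicate 1, control replicate 2 or control replicate 3, 6 when knockdown replicate 2 was left out, and 3 without control replicate 4. The 1 gene that stood in it without knockdown replicate 3 was Cdk5r1, not Cdk1. Over all genes, the number lower at that p was 719 with all arrays and 1522 without knockdown replicate 2. It was 721 without control replicate 4, and 469, 485 and 505 without knockdown replicate 1, control replicate 2 and control replicate 3. The rise without knockdown replicate 2 was thus shared by many genes outside the list. The groups overlapped for all 39 members, while 3.07% of all genes lay wholly lower in knockdown arrays and 2.59% wholly higher.

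Most members had slightly lower signals in knockdown samples, which genes of like brightness shared in part. The difference was below 0 for 32 of the 39 members, against 50.2% of all genes, and the median difference was -0.15, against -0.001 over all genes. Among the 6877 genes with a mean level of 6 to 11, a range that holds 37 of the members, 66.2% were lower and the median was -0.12. The 37 members in that range had a median of -0.15 and 30 of them were lower. With the array medians set equal, which moved the median of all genes to -0.107, the members' median was -0.26, and with cyclic loess normalization it was -0.085.

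**Figure D1:**
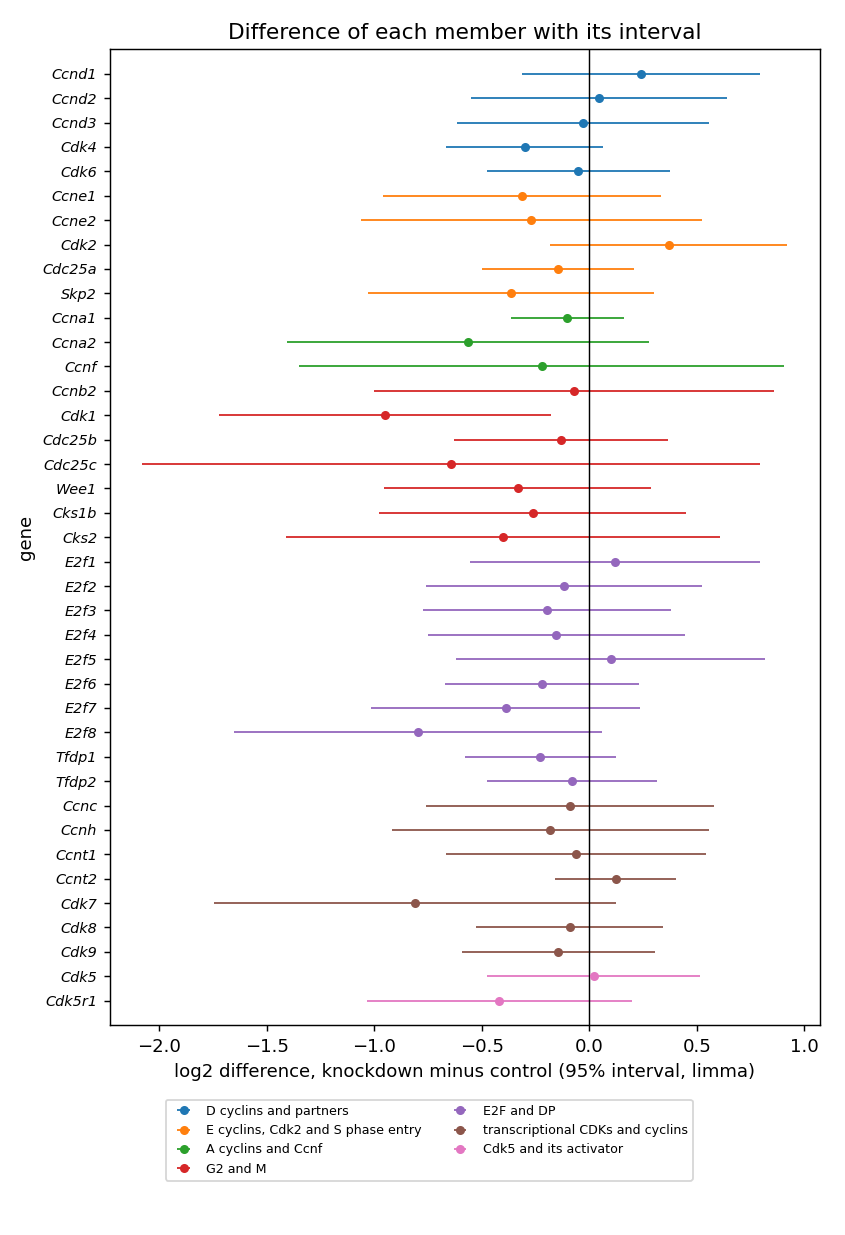
Each row is 1 member, with the point at its log2 difference, knockdown minus control (x axis), and the bar its 95% interval from limma over 3 knockdown and 4 control arrays, coloured by role. The interval of Cdk1, from -1.72 to -0.18, is the only 1 that leaves out 0, before any adjustment over genes.

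The spread within a group was wide for these genes. The median residual SD of the members was 0.395 log2 units, against 0.234 over all genes and 0.316 over the genes of like level, and 33 members lay above the median of all genes. The knockdown arrays also differed among themselves. Knockdown replicate 1 lay below every control for 19 members and above every control for 5, where the shares over all genes were 23.7% in each direction. Knockdown replicate 3 lay below every control for 15 members (24.2% of all genes) and above for 1 (25%), and knockdown replicate 2 below for 2 (19.7%) and above for 6 (15%). Among the genes of like level, 36.8%, 15.9% and 43.6% lay below every control in knockdown replicates 1, 2 and 3, so the low values of replicates 1 and 3 were shared by many other genes.

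**Figure D2:**
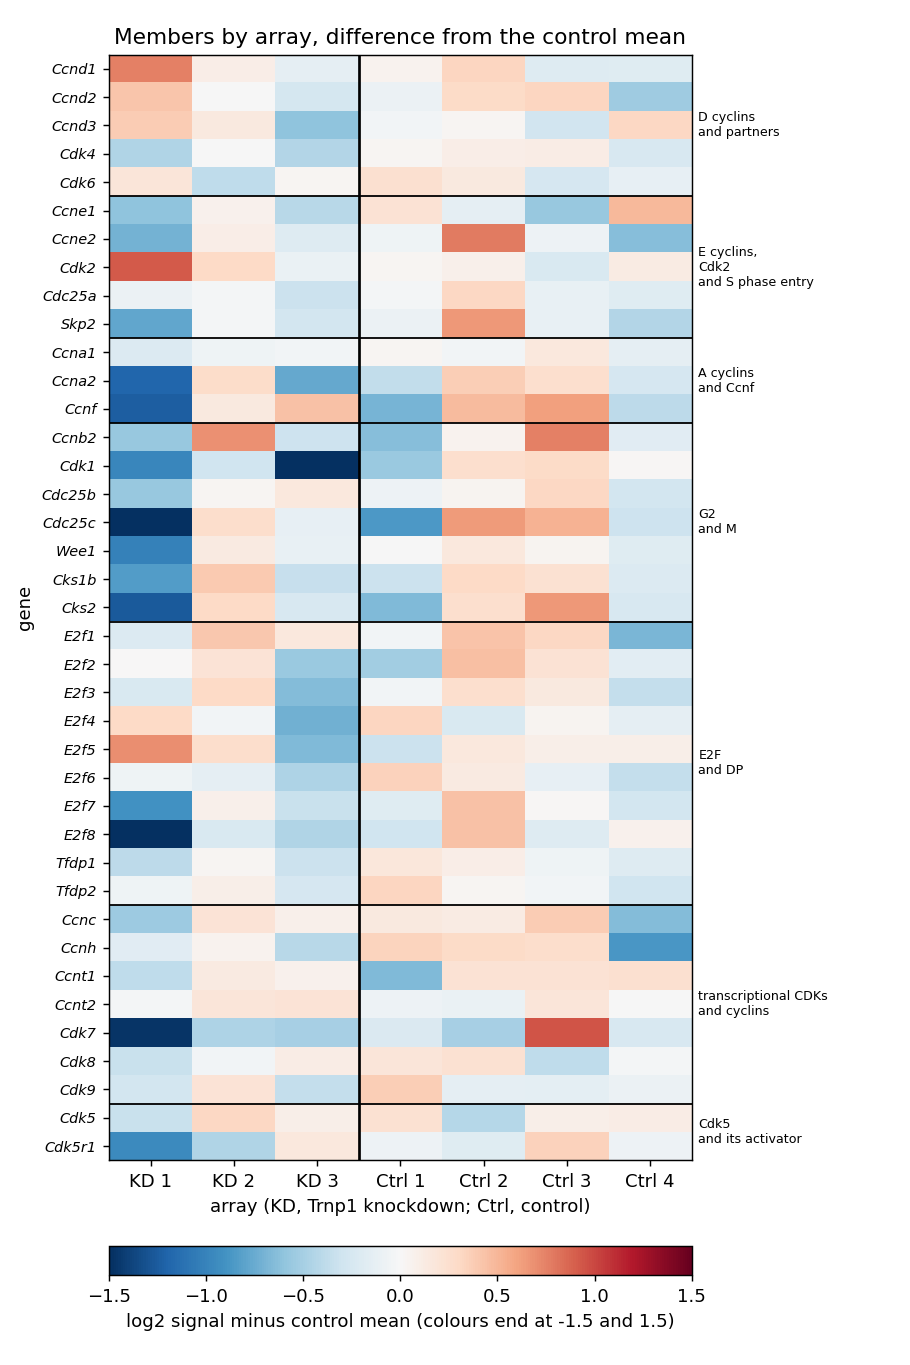
Rows are the 39 measured members grouped by role and columns the 3 knockdown (KD) and 4 control (Ctrl) arrays, with the colour giving the log2 signal minus the gene's control mean. Knockdown replicate 1 is blue for the G2 and M genes, palest of them for Ccnb2 and Cdc25b. It is also blue for Ccna2, Ccnf, E2f8, Cdk7 and Cdk5r1, among others. It is red for Cdk2, Ccnd1 and E2f5 and paler red for Ccnd2 and Ccnd3, while knockdown replicate 2 is pale for most members.

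For the G1 machinery the median difference was near 0. The 5 genes of the D cyclin group had a median difference of -0.03, with 3 lower and 2 higher, and this median lay between -0.17 without knockdown replicate 1 and 0.20 without knockdown replicate 3. Ccnd1, a D cyclin of cortical progenitors that growth signals induce, was at 10.24, 9.58 and 9.35 in knockdown arrays, against 9.54, 9.80, 9.29 and 9.30 in controls. Only knockdown replicate 1 lay above all controls, and the difference was 0.24 (SE 0.24, 95% interval -0.31 to 0.79), or -0.019 without that array. Ccnd2, the D cyclin whose transcript is carried to the basal endfeet of radial glia, was at 11.10, 10.68 and 10.43 in knockdown arrays, against 10.60, 10.98, 11.01 and 10.15 in controls. The groups overlapped throughout, with a difference of 0.05 (SE 0.25, interval -0.55 to 0.64) that was -0.060 with the array medians set equal.

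Ccnd3, the remaining D cyclin, was at 7.14, 6.91 and 6.16 in knockdown arrays, against 6.72, 6.79, 6.48 and 7.07 in controls. Its knockdown arrays lay on either side of the controls, and the difference of -0.03 (SE 0.25) turned to 0.046 after cyclic loess normalization. All 3 D cyclins were above every control in knockdown replicate 1. Of their kinases, Cdk4 was at 10.21, 10.66 and 10.22 in knockdown arrays, against 10.69, 10.76, 10.78 and 10.43 in controls. Knockdown replicates 1 and 3 lay below all controls and replicate 2 did not. The difference of Cdk4 was -0.30 (SE 0.16, interval -0.67 to 0.065, limma adjusted p = 0.825). Cdk6, which shares its substrates, was at 8.38, 7.82 and 8.23 against 8.43, 8.34, 7.94 and 8.07 (knockdown and control arrays), with a difference of -0.05 (SE 0.18) that was 0.082 after cyclic loess normalization.

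Genes of S phase entry differed in both directions. The group of E cyclins, Cdk2 and the enzymes that act with them had a median difference of -0.27, with 4 lower and 1 higher, and -0.04 without control replicate 2. Cdk2, the kinase of E and A cyclins, was at 8.15, 7.53 and 7.13 in knockdown arrays, against 7.26, 7.31, 7.01 and 7.36 in controls. Knockdown replicates 1 and 2 lay above all controls and replicate 3 within them, and the difference of 0.37 (SE 0.24, interval -0.18 to 0.92) was the highest of any member. It was 0.097 without knockdown replicate 1. Leaving out knockdown replicate 3 gave 0.61, and in that fit Cdk2 was higher at an unadjusted p under 0.05, the only such member when 1 array was left out.

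Ccne1, an E cyclin that activates Cdk2, was at 6.62, 7.29 and 6.81 in knockdown arrays, against 7.44, 7.08, 6.65 and 7.71 in controls, a difference of -0.31 (SE 0.28). Its relative Ccne2 was at 6.02, 6.83 and 6.54 in knockdown arrays, against 6.67, 7.51, 6.66 and 6.09 in controls, a difference of -0.27 (SE 0.34) that was -0.012 without control replicate 2. For either E cyclin the controls alone spanned more than the difference. Skp2, the ubiquitin ligase subunit that marks the CDK inhibitor Cdkn1b for destruction, was at 6.84, 7.59 and 7.35 against 7.53, 8.27, 7.51 and 7.18 (knockdown and control arrays). Its difference was -0.36 (SE 0.29), and -0.15 without control replicate 2. The phosphatase Cdc25a, which activates Cdk2, differed by -0.14 (SE 0.15), with an interval from -0.50 to 0.21 that excludes a change of 1 log2 unit in either direction.

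In knockdown replicate 1, 6 of the 7 measured G2 and M genes lay below every control, against 36.8% of genes of like level. In knockdown replicate 2 none did, against 15.9%, and 1 lay above every control, against 15% of all genes. Each of the 7 had a difference below 0, with a median of -0.33, against -0.12 for genes of like level. The median of this group's deviations from the control mean stood at -0.98, 0.27 and -0.23 in knockdown replicates 1 to 3, against -0.56, 0.25, 0.31 and -0.20 in control replicates 1 to 4. The group's median difference therefore became 0.03 when knockdown replicate 1 was left out and -0.59 when replicate 2 was, or -0.19 without control replicate 3, while the controls' own medians spanned from -0.56 to 0.31. Knockdown replicate 1 gave the lowest value of all 7 arrays for 5 of the 7 genes.

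**Figure D3:**
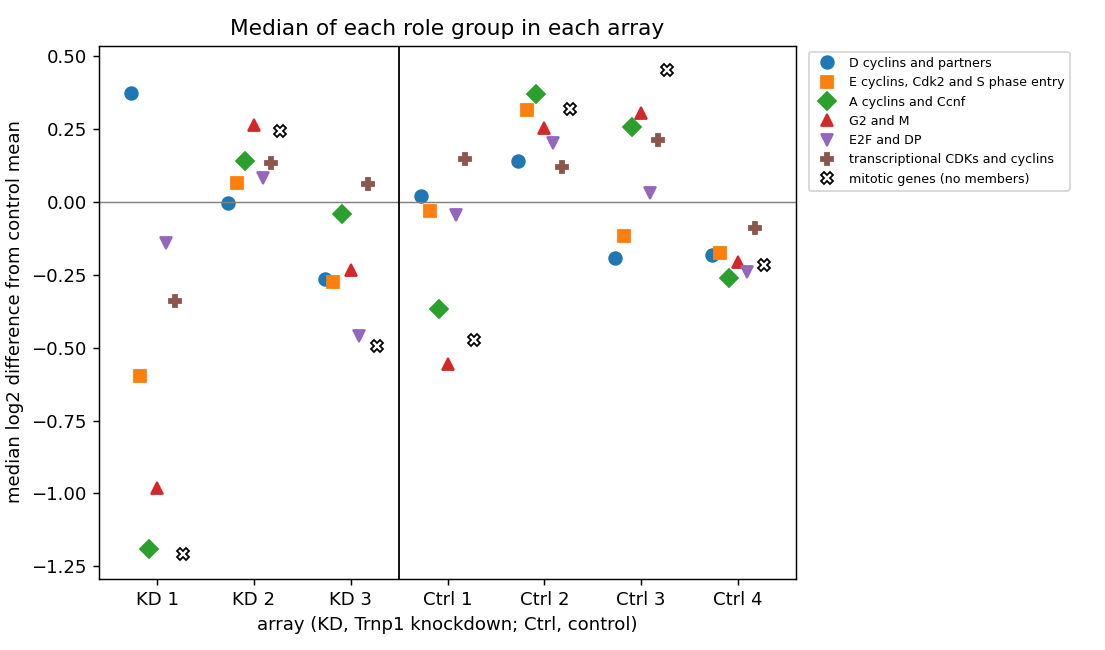
Points give, for each array (x axis, knockdown left and control right), the median over a role group of the log2 signal minus the control mean (y axis), with open crosses for 20 mitotic genes that are no members. In knockdown replicate 1 the A cyclin and G2 and M medians are at -1.19 and -0.98 and the D cyclin median at 0.37, and control replicate 1 is the lowest control for the G2 and M genes.

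Cdk1, the kinase that drives entry into mitosis, had the largest difference of any member. Its log2 level was 7.94, 8.63 and 7.35 in knockdown arrays, against 8.37, 9.18, 9.21 and 8.94 in controls. Knockdown replicates 1 and 3 lay below all controls, while replicate 2 lay above control replicate 1, so the groups overlapped. The means were 7.97 ± 0.640 (SD, n = 3) in knockdown samples and 8.92 ± 0.389 (SD, n = 4) in controls, a difference of -0.95 (SE 0.33, interval -1.72 to -0.18) or 1.93-fold. By limma its adjusted p was 0.825 and its unadjusted p 0.0222, and with 1 array left out the difference ran from -1.28 without knockdown replicate 2 to -0.64 without knockdown replicate 3. Unlike the other G2 and M genes, Cdk1 was lowest in knockdown replicate 3.

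Cdc25c, a phosphatase that activates Cdk1, was at 5.35, 7.68 and 7.29 in knockdown arrays, against 6.56, 8.06, 7.94 and 7.11 in controls. Its difference of -0.64 (SE 0.61) rested on knockdown replicate 1 and was 0.070 without it. Cks2, a small subunit that binds CDKs, was at 8.18, 9.74 and 9.21 against 8.78, 9.70, 10.10 and 9.20, and its relative Cks1b at 9.19, 10.43 and 9.69 against 9.71, 10.33, 10.26 and 9.83 (knockdown and control arrays). For both, knockdown replicate 1 was the lowest array and replicate 2 stood among the highest. Their differences were -0.40 (SE 0.43) and -0.26 (SE 0.30), and 0.031 and 0.028 without knockdown replicate 1.

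Wee1, the kinase that holds Cdk1 inactive, was at 7.03, 8.18 and 7.93 in knockdown arrays, against 8.04, 8.20, 8.09 and 7.86 in controls. Here the controls lay close together, and knockdown replicate 1 alone stood about 1 log2 unit below them. The difference was -0.33 (SE 0.27), and 0.0077 without that array. Cdc25b, a phosphatase that starts Cdk1 activation, differed by -0.13 (SE 0.21, interval -0.63 to 0.37). Ccnb2, the B cyclin that was measured, was at 8.45, 9.70 and 8.71 in knockdown arrays, against 8.38, 9.07, 9.78 and 8.85 in controls, so control replicate 1 was its lowest array. Its difference of -0.07 (SE 0.40) turned to 0.059 after cyclic loess normalization and to 0.18 without control replicate 3.

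Of the A cyclins, Ccna2, which works from S phase to early mitosis, was at 9.0, 10.46 and 9.42 in knockdown arrays, against 9.82, 10.56, 10.44 and 9.93 in controls. Knockdown replicates 1 and 3 lay below all controls, and replicate 2 near the highest of them. The difference was -0.56 (SE 0.36, interval -1.41 to 0.28), with -0.98 without knockdown replicate 2 and -0.25 without knockdown replicate 1. Ccnf, a cyclin that serves as a ubiquitin ligase subunit and binds no CDK, was at 5.16, 6.54 and 6.83 against 5.70, 6.87, 7.01 and 6.00 (knockdown and control arrays), a difference of -0.22 (SE 0.48) that was 0.29 without knockdown replicate 1. Ccna1, the A cyclin of the germ line, had a dim signal at the 21.6th percentile of the genes' mean levels, with a difference of -0.10 (SE 0.11). Differences of dim probe sets can be compressed, and whether a larger one was hidden here cannot be told.

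**Figure D4:**
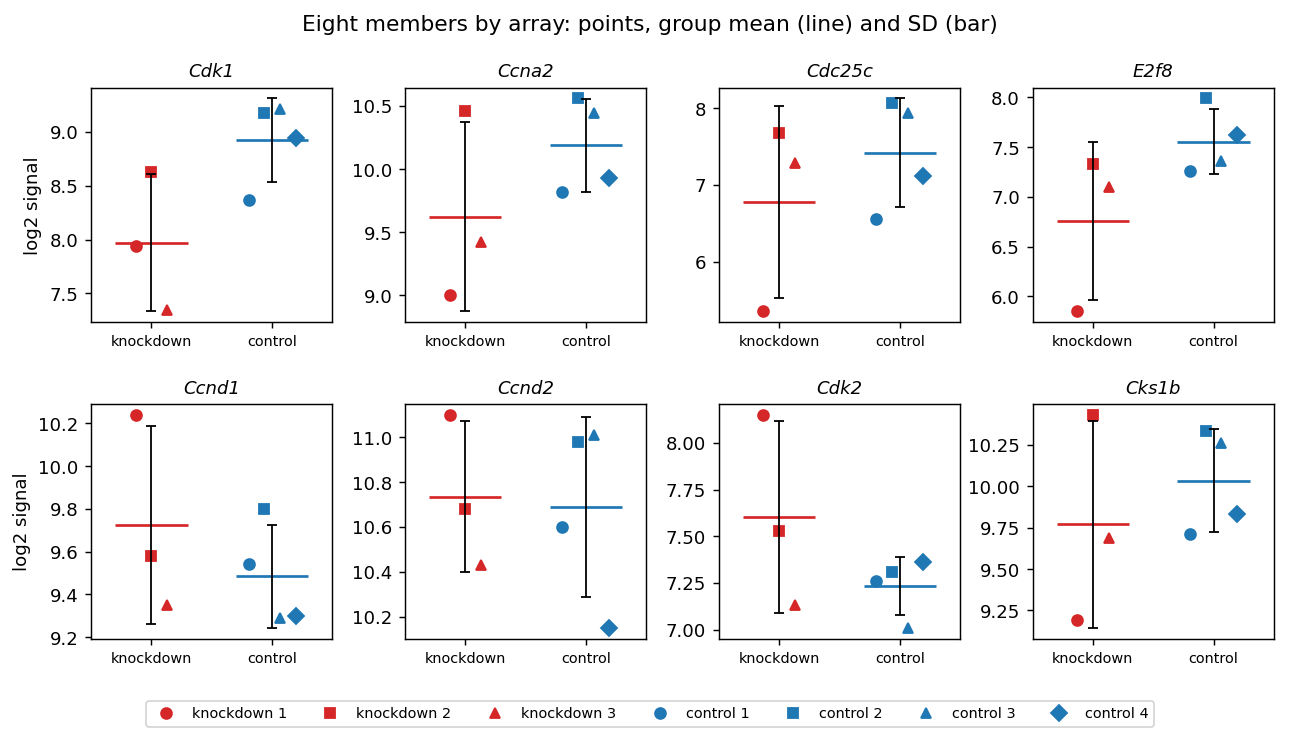
Log2 signal of 8 members in each knockdown (red, left) and control (blue, right) array, with a line for the group mean and a bar for the SD (n = 3 and n = 4), and a symbol for each replicate. Red circles, knockdown replicate 1, are the lowest points for Ccna2, Cdc25c, E2f8 and Cks1b and the highest for Ccnd1, Ccnd2 and Cdk2.

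The promoters of Cdk1, Ccnb2, Cks1b, Cks2 and Cdc25b are shown because these are the measured G2 and M genes that the promoter table holds. That of Cdk2 is shown as 1 gene that was above every control in knockdown replicate 1. Ccnd3 also lay above every control in that array and is in the table. Its promoters, which hold none of the E2F sites searched, are not printed. Sequences are from RefSeq on GRCm38.p6, from 250 bases before to 50 after the gene's start, 5′ to 3′ on the gene's strand, and the table held 35 such windows for 29 of the listed genes. Capitals mark 3 motifs, searched on both strands. These are the CCAAT box, the CHR element, which binds the repressor complex of mitotic genes, and E2F sites. The CHR element was searched only as TTTGAA, and E2F sites only as TTTCCCGC, TTTCGCGC, TTTGCCGC or TTTGGCGC.
Cdk1, minus strand, chr10:69352863-69353162: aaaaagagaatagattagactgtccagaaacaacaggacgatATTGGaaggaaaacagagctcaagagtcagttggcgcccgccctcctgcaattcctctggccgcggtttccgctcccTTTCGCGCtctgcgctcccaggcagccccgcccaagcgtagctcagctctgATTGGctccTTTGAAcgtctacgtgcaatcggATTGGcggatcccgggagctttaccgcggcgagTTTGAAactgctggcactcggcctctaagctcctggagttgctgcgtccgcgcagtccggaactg
Ccnb2, minus strand, chr9:70421505-70421804: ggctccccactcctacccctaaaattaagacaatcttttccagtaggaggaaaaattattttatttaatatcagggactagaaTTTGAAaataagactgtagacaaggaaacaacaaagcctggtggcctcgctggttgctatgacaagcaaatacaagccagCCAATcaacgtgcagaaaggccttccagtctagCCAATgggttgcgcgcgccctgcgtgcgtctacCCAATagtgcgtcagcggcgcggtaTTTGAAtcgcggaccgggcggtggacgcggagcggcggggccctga
Cks1b, minus strand, chr3:89418242-89418541: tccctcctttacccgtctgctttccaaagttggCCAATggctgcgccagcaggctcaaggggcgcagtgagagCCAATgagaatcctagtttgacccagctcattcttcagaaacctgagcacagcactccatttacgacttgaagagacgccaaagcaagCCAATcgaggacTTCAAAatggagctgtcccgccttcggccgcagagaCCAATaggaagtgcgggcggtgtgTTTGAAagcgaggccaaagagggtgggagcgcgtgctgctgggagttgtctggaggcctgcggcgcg
Cks2, plus strand, chr13:51644982-51645281: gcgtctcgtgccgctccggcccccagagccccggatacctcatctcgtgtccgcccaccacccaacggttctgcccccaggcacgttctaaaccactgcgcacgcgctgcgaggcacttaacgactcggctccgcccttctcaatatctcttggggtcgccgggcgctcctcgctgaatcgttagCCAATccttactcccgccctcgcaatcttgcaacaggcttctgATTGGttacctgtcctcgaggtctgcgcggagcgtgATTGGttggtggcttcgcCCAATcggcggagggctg
Cdc25b, plus strand, chr2:131186698-131186997: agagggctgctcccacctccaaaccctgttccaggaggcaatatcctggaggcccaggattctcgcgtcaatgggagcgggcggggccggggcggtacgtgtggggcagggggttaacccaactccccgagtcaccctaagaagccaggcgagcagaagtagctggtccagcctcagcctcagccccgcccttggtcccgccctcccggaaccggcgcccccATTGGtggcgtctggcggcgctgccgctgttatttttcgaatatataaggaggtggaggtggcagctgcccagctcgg
Cdk2, minus strand, chr10:128705002-128705301: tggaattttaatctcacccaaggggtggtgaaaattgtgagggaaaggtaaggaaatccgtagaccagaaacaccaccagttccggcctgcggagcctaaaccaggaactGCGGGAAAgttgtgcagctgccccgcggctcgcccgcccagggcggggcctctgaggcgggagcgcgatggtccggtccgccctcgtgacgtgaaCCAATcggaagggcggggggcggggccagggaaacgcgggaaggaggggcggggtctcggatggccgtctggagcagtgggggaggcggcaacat

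Cdk1 holds 1 E2F site 131 bases before its start, 2 CHR elements 71 and 15 bases before it and 3 CCAAT boxes. Ccnb2 holds 3 CCAAT boxes and 2 CHR elements, one of them 4 bases after the start, and Cks1b holds 4 CCAAT boxes and 2 CHR elements, 77 and 17 bases before it. Cks2, with 4 CCAAT boxes, and Cdc25b, with 1 CCAAT box 28 bases before its start, hold neither TTTGAA nor an E2F site as searched. Other spellings of these motifs were not searched, so their absence is not shown. Cdk2 holds 1 E2F site, read on the opposite strand as GCGGGAAA, and 1 CCAAT box, and no TTTGAA. Some genes have several windows, so shares were taken over windows. An E2F site stood in 8 of the 35 windows of listed genes (22.9%), against 2.26% of all 32851 windows. A CHR element stood in 8 of them (22.9%), against 17.9% of all, and a CCAAT box in 20 (57.1%), against 37.4%. The motifs do not overlap in the 6 windows printed, and a match describes the letters only.

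The E2F family and its DP partners had a median difference of -0.17, with 8 of 10 genes lower, and 0.02 without knockdown replicate 3. Knockdown replicate 3 lay below every control for 8 of the 10 genes, against 43.6% of genes of like level, and knockdown replicate 1 did for 3. So E2F genes were low mainly in another array than the G2 and M genes. Among the activators, E2f1 was at 6.82, 7.43 and 7.19 in knockdown arrays, against 6.98, 7.45, 7.34 and 6.34 in controls, a difference of 0.12 (SE 0.29) that was -0.11 without control replicate 4. E2f2 and E2f3, the other two activators, differed by -0.12 (SE 0.27) and -0.20 (SE 0.25), and without knockdown replicate 3 by 0.10 and 0.033.

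The repressor-type members also overlapped between groups. E2f4, which acts with pocket proteins in resting cells, was at 8.16, 7.82 and 7.14 in knockdown arrays, against 8.19, 7.63, 7.90 and 7.73 in controls, a difference of -0.15 (SE 0.25). E2f5, its closest relative, was at 6.99, 6.56 and 5.64 against 5.97, 6.45, 6.38 and 6.38 (knockdown and control arrays), so that knockdown replicate 1 was its highest array and replicate 3 its lowest. Its difference was 0.10 (SE 0.31), from -0.20 without knockdown replicate 1 to 0.48 without knockdown replicate 3. E2f6, a repressor that works without pocket proteins, differed by -0.22 (SE 0.19, interval -0.67 to 0.23).

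E2f7 and E2f8, the atypical repressors that accumulate in S phase and shut E2F targets down, had the lowest differences of the family. E2f8 was at 5.85, 7.33 and 7.10 in knockdown arrays, against 7.26, 7.99, 7.36 and 7.62 in controls. Knockdown replicates 1 and 3 lay below all controls and replicate 2 just above the lowest. The difference was -0.80 (SE 0.37, interval -1.65 to 0.059, limma adjusted p = 0.825), and -0.34 without knockdown replicate 1. E2f7 was at 6.56, 7.55 and 7.13 in knockdown arrays, against 7.29, 7.91, 7.49 and 7.19 in controls, a difference of -0.39 (SE 0.27) that was -0.13 without knockdown replicate 1. For both genes the order of the knockdown arrays was that of the G2 and M group.

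Tfdp1, the main DP partner with which E2F factors bind DNA, was at 8.61, 9.04 and 8.69 in knockdown arrays, against 9.18, 9.11, 8.94 and 8.81 in controls, a difference of -0.23 (SE 0.15). Its other probe set read 8.54, 8.72 and 8.54 in knockdown arrays, against 8.88, 9.33, 8.83 and 9.20 in controls, without overlap and with a difference of -0.46. Tfdp2, the second DP partner, differed by -0.08 (SE 0.17, interval -0.48 to 0.32).

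Kinases and cyclins of transcription had a median difference of -0.09, with 6 of 7 lower, and 0.03 without knockdown replicate 1. Cdk7, the kinase of the general transcription factor TFIIH that also activates other CDKs, was at 4.52, 5.53 and 5.50 in knockdown arrays, against 5.78, 5.50, 6.94 and 5.75 in controls. Knockdown replicate 1 was the lowest array and control replicate 3 the highest, both far from the others. The difference was -0.81 (SE 0.40, interval -1.74 to 0.12), but the second Cdk7 probe set gave -0.03, with 5.15, 5.43 and 5.68 in knockdown arrays and 5.60, 5.39, 5.68 and 5.11 in controls. The value of Cdk7 therefore depends on the probe set, and was -0.42 as the mean of both, -0.48 without knockdown replicate 1 and -0.49 without control replicate 3.

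Ccnh, the cyclin of Cdk7, was at 7.31, 7.53 and 7.06 in knockdown arrays, against 7.81, 7.77, 7.74 and 6.60 in controls. All 3 knockdown arrays lay between control replicate 4 and the other controls, with a difference of -0.18 (SE 0.32), or -0.48 without control replicate 4. Cdk8 and Ccnc, the kinase pair of the Mediator complex, each differed by -0.09 (SE 0.19 and 0.29). Cdk9, which releases paused RNA polymerase II, differed by -0.14 (SE 0.19), and its cyclins Ccnt1 and Ccnt2 by -0.06 (SE 0.26) and 0.12 (SE 0.12). The interval of Ccnt2, from -0.16 to 0.41, was the narrowest after that of Ccna1.

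Cdk5 and its activator were the neuronal members. Cdk5 was at 6.44, 7.08 and 6.86 in knockdown arrays, against 7.0, 6.35, 6.86 and 6.88 in controls, a difference of 0.02 (SE 0.21, interval -0.47 to 0.52). Cdk5r1, the neuronal activator of Cdk5, was at 6.97, 7.48 and 8.08 against 7.85, 7.74, 8.27 and 7.85 (knockdown and control arrays). Knockdown replicates 1 and 2 lay below all controls and replicate 3 within them. Its difference was -0.42 (SE 0.26), from -0.70 without knockdown replicate 3 to -0.15 without knockdown replicate 1. The 5 neuronal marker genes had a median deviation of -0.66, -0.44 and -0.25 in knockdown replicates 1, 2 and 3, in the same order of arrays as Cdk5r1, and their part in its value was not tested.

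**Figure D5:**
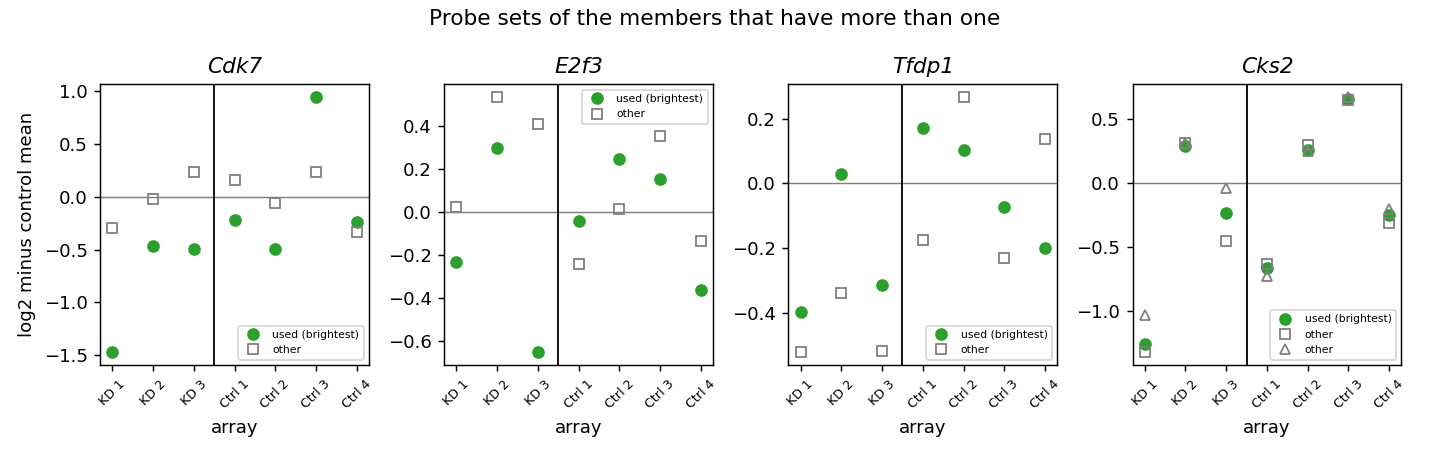
Log2 signal minus the control mean (y axis) in each array (x axis) for the probe sets of the 4 members that have more than 1, filled green for the brightest and used probe set and open grey for the others. The 3 probe sets of Cks2 lie close together in each array, while those of Cdk7 and E2f3 do not.

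Of the 4 members with several probe sets, Cks2 and Tfdp1 gave the same direction in each, while the second probe set of Cdk7 was near 0. The differences were -0.40, -0.49 and -0.25 for Cks2, -0.23 and -0.46 for Tfdp1, and -0.81 and -0.03 for Cdk7. The probe sets of E2f3 disagreed, at -0.20 for the one used and 0.32 for the other, whose signal was much dimmer.

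Surrounding genes were read from lists of the same pathways, and each count stands against 3.61% of all genes lower and 2.2% higher at an unadjusted p under 0.05. Of genes of like level, 66.2% had a difference below 0. All 20 mitotic genes had a difference below 0, with a median of -0.52, and 0 passed at an adjusted or an unadjusted p under 0.05 by limma. Of these genes 19 lay over the 50th percentile of the genes' mean levels. The dimmest was at the 3.58th, where a direction says little. Their median deviation stood at -1.21, 0.24 and -0.49 in knockdown replicates 1 to 3, against -0.47, 0.32, 0.45 and -0.22 in control replicates 1 to 4. Within the knockdown arrays, and within the controls, this is the order seen for the G2 and M members. Hmmr, a spindle protein, and Prc1, which bundles midzone microtubules, had the smallest p among them, with differences of -1.28 (SE 0.62) and -0.81 (SE 0.38). Without knockdown replicate 1 they were -0.87 and -0.44.

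E2F target genes of S phase had a median difference of -0.02, with 10 of 19 lower and 9 higher, and 1 was lower at an unadjusted p under 0.05. That was Orc1, a subunit of the origin recognition complex with a dim signal (-0.27, SE 0.10), followed by the replicative helicase subunit Mcm5 (-0.38, SE 0.18). The group's median deviation stood at -0.24, 0.20 and -0.25 in knockdown replicates 1 to 3, against a range of -0.28 to 0.42 in controls.

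A list of 10 genes held pocket proteins and MuvB subunits, which keep E2F genes and mitotic genes silent, with Mybl2 and Foxm1, which join MuvB to activate mitotic genes. Of these, 8 were lower and 2 higher (median -0.13), near the median of -0.12 for genes of like level, and Mybl2 and Foxm1 differed by 0.24 (SE 0.25) and -0.40 (SE 0.32). The retinoblastoma gene Rb1 was at 7.86, 8.24 and 8.23 in knockdown arrays, against 8.39, 8.84, 9.03 and 8.66 in controls, a difference of -0.62 (SE 0.18) without overlap. The MuvB subunit Lin52 was higher in every knockdown array, at 6.35, 6.47 and 6.39 against 6.04, 6.17, 5.77 and 5.34 (knockdown and control arrays), a difference of 0.58 (SE 0.20). Neither passed over all genes (limma adjusted p = 0.825 for each). Of 6 CDK inhibitors 4 were lower, with a median of -0.59, and the lowest p belonged to Cdkn2d (-0.81, SE 0.13), which blocks Cdk4 and Cdk6, and Cdkn1b (-0.63, SE 0.16), which blocks Cdk2. For both inhibitors all knockdown arrays lay below all controls, as for 3.07% of all genes.

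Ubiquitin ligases and regulators of cyclin turnover, a list that also holds the deubiquitinase Usp37 and the ligase inhibitor Fbxo5, had a median of -0.31. Of its 18 genes 14 were lower, 1 of them, Anapc10, at an unadjusted p under 0.05, and Usp37 and Fbxo5 differed by 0.23 (SE 0.25) and -0.32 (SE 0.49). Anapc10 and Anapc11, subunits of the anaphase-promoting complex, differed by -0.67 (SE 0.16) and -0.60 (SE 0.27). Among 25 other CDKs, cyclins and subunits, 16 were lower and 9 higher (median -0.14), close to genes of like level, and at an unadjusted p under 0.05 there were 2 in each direction. Ccnk, the cyclin of the transcriptional kinases Cdk12 and Cdk13, was at 7.72, 8.44 and 7.94 in knockdown arrays, against 8.86, 8.76, 8.60 and 8.79 in controls (-0.72, SE 0.18, without overlap), and the Mediator subunit Med12 differed by 0.39 (SE 0.16). None of these lists had a member with an adjusted p under 0.05.

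Markers of cell types differed between arrays as well. The 7 cortical progenitor markers measured had a median difference of -0.0025, and their mean level was 8.69 to 8.98 in knockdown arrays and 8.46 to 9.13 in controls, and each lay at or above the 79.8th percentile of the genes' mean levels. All 6 endothelial markers had a difference above 0, with summed log2 levels of 30.6 to 43.6 in knockdown arrays and 25.6 to 41.4 in controls. They were high in knockdown replicates 1 and 2 (median deviations 2.04 and 1.06) and in control replicate 4 (1.90), and 0.14 in knockdown replicate 3. The 6 microglial markers reached 1.88 in control replicate 4 and 0.85 in knockdown replicate 2, with summed levels of 39.3 to 46.8 in knockdown arrays and 34.8 to 52.0 in controls. The 5 erythroid markers measured, 4 of them higher, had summed levels of 35.4 to 40.2 in knockdown arrays and 33.2 to 39.1 in controls.

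Markers of the ventral telencephalon stood at a median deviation of 1.40 in knockdown replicate 2, the array without low mitotic genes, and at 0.41 and 0.092 in replicates 1 and 3. All 6 of them had a difference above 0, but unevenly, from 0.08 to 1.61. Only 2 lay over the 50th percentile of the genes' mean levels, and the dimmest was at the 29.5th. Summed levels were 26.4 to 36.1 in knockdown arrays and 24.4 to 26.6 in controls. Intermediate progenitor markers, 3 of 4 lower, had a median deviation of 0.25, -0.52 and -0.07 in knockdown replicates 1 to 3, with summed levels of 35.7 to 38.1 in knockdown arrays and 37.0 to 37.7 in controls. The neuronal markers summed to 47.8 to 51.0 in knockdown arrays and 50.7 to 51.9 in controls, with 4 of 5 lower. For 2 of the 5 all knockdown arrays lay below all controls, as for 3.07% of all genes. The same held for 1 of the 7 cortical progenitor markers, and 1 of the 6 ventral markers lay wholly higher, as did 2.59% of all genes. No marker of the other lists lay wholly to either side. No association of these markers with the cell cycle genes was computed, and their part in the differences above was not tested.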

How the data were processed

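RNA of 3 Trnp1 knockdown and 4 control samples of sorted embryonic mouse cortical cells was hybridised to 1 array each, after DNase treatment and whole-transcriptome amplification, per the labels' protocols. Per the submitters' processing notes, the authors used RMA and Affymetrix Expression Console 1.2, and the deposited values are on a log2 scale. Such normalization makes differences of dim probe sets too small. The sources used here do not give the genome build. Of 35556 probe sets, 21789 had 1 gene symbol, 1621 several and 12146 none, and symbols were updated through Entrez identifiers (21698 matched) in a RefSeq table. Each of 19938 genes was represented by its brightest probe set with 1 symbol.

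Groups were compared with limma 3.58.1, run in R 4.3.3 (lmFit, eBayes, two-sided, no covariate, 5 residual and 2.36 prior degrees of freedom), with Benjamini-Hochberg adjustment over all genes and a threshold of 0.05. Intervals are limma's 95% intervals. The test of Trnp1 used scipy 1.17.1 on absolute differences of means. The fit was tested on simulated data. In 5 runs over 19938 genes, 200 of them changed, 50.8% of the changes of size 1 (log2) and 84.6% of those of size 2 were recovered. Noise was drawn independently for each gene with its own residual SD, without deviations that genes share within an array. The changed genes were drawn from all genes, whose median residual SD was 0.234, against 0.395 for the members. These rates therefore do not give the share recoverable among the members. Deviations of same-numbered arrays of the groups had correlations of 0.028, -0.051 and 0.072, and those of differently numbered arrays ran from -0.196 to 0.140. The labels do not say that the numbers pair samples. With so few arrays these correlations cannot decide it.

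The members, role groups and lists were chosen with earlier results of these data known, so no list was given a test. Named are Trnp1, all members and the 2 genes with the smallest p of each surrounding list; Mybl2, Foxm1, Usp37, Fbxo5 and the 6 promoters were chosen after values were seen.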

Additional observations from a re-analysis of the deposited data

Results flagged for a closer look

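Chance marks about 1 in 20 groups of 4, and 5 of 52 genes examined had 1 control array far from the other three. The lowest control value of Ccnh was 6.60, in control replicate 4, with the others between 7.74 and 7.81. Ccnt1 was at 5.95 in control replicate 1, with the others between 6.82 and 6.85. In the same array E2f5 was lowest at 5.97, against 6.38 to 6.45, and Cdk9 highest at 8.12, against 7.61 to 7.67. Orc1 was highest at 4.67 in control replicate 3, against 4.45 to 4.48.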

How the results depend on the processing

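The count of genes with an adjusted p under 0.05 was 0 in every alternative run, also at 0.1, and the smallest adjusted p of a member was 0.223, for Cdk1 without knockdown replicate 2. All 39 members, Trnp1 and 12 surrounding genes were followed through 15 alternatives, and 18 members kept their direction in each. Members lower at an unadjusted p under 0.05 numbered 1 of 39, where 719 of all 19938 genes were lower. With array weights 3 members were lower (832 of all genes), with equal array medians 3 (1507) and with the mean over probe sets 2 (722). With 1 array left out 0 to 6 were lower (469 to 1522 of all genes). Higher members numbered 0 to 1 with 1 array left out. The labels do not say whether the numbers pair samples. With the replicate number as a block, which leaves out control replicate 4, 10 of the 39 members were lower, where 842 of all genes were. Over all genes 439 were higher, and 183 with equal array medians. Without knockdown replicate 2 the counts over all genes were 1522 lower and 882 higher, and without knockdown replicates 1 or 3 the lower count was 469 or 476.

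Directions turned in at least 1 alternative for 21 members, among them Cdc25c, Cks2 and Wee1, whose values turned without knockdown replicate 1. With array weights the values were -0.020 for Ccnd2, 0.091 for Ccnd3 and -0.059 for E2f1. With the replicate block they were -0.13 for Ccnd2, 0.073 for Ccnd3, -0.11 for E2f1 and 0.018 for Ccnt1. Equal array medians gave -0.060 for Ccnd2, -0.0066 for E2f5 and -0.084 for Cdk5. A further quantile normalization gave 0.049 for Cdk6, 0.033 for Ccnb2 and 0.0059 for Tfdp2. Cyclic loess gave 0.046 for Ccnd3, 0.082 for Cdk6, 0.059 for Ccnb2, 0.039 for Tfdp2, 0.0015 for Ccnt1 and 0.041 for Cdk8. The mean over probe sets gave 0.065 for E2f3. With 1 array left out the ranges were as follows. Ccnd1 ran from -0.019 to 0.43, Ccnd2 from -0.13 to 0.20, Ccnd3 from -0.23 to 0.26 and Cdk6 from -0.17 to 0.11. Ccnf ran from -0.55 to 0.29, Ccnb2 from -0.44 to 0.18, Cdc25b from -0.27 to 0.091 and Cdc25c from -1.10 to 0.070. Wee1 ran from -0.57 to 0.0077, Cks1b from -0.59 to 0.028 and Cks2 from -0.75 to 0.031. E2f1 ran from -0.11 to 0.28, E2f2 from -0.29 to 0.10, E2f3 from -0.44 to 0.033, E2f4 from -0.38 to 0.13 and E2f5 from -0.20 to 0.48. Tfdp2 ran from -0.18 to 0.031, Ccnc from -0.31 to 0.14, Ccnt1 from -0.28 to 0.099, Cdk8 from -0.22 to 0.033 and Cdk5 from -0.12 to 0.20. The causes were not tested.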
